A study of Mus musculus with 20 samples.

Results

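The livers of IR 4A and wild-type (WT) male mice, 2 months old, were compared over 10 of the 20 libraries of the series, 5 for each genotype, with all genes of the liver count table and 1 row per Ensembl gene. Of 15608 genes in that table, 12421 passed the filter on low counts and were tested, and 6838 of these were well expressed, meaning a mean over the 10 libraries of at least 10 CPM, the TMM-scaled count relative to library size. IR 4A is the label's name for the genotype. It is known from the field as an insulin receptor whose MAD2-interacting motif was changed to alanines, and the labels give neither strain, breeding nor feeding state, nor say how the receptor was altered. The WT and IR 4A livers therefore share sex and age, and each library is labelled as a replicate of its group with no animal number, so every p-value refers to the spread among libraries, which could be technical. The other 10 libraries, of epididymal fat, were not used here.

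The insulin receptor is a tyrosine kinase of the cell surface that turns on PI3-kinase and AKT when insulin binds, and is then taken into the cell. In hepatocytes this signal raises the lipogenic genes through SREBP-1c, promotes protein synthesis and lowers the enzymes of glucose production. MAD2, known from the spindle checkpoint, takes part in recruiting the endocytic adaptor to the receptor through the motif that gives the IR 4A form its name.

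Total counts were 17989420 to 24238359 per library and did not separate the groups (exact permutation test, two-sided, p = 0.405). The number of genes with at least 1 count was 14792 to 15006 in WT and 15021 to 15269 in IR 4A libraries (exact p = 0.00794, the smallest that 5 against 5 can give, 0.0159 adjusted over both tests). The TMM scaling factors did not overlap either, at 0.901 to 0.995 in WT and 1.028 to 1.098 in IR 4A libraries. Their part in the small differences below was not tested. WT 1 and WT 3 stood apart: the mean level of the acute phase list, as log2(CPM + 1) relative to the mean of the 10 libraries, was 1.88 and 1.00 in them and at most 0.12 in the other 8. Results are therefore given with all libraries and without these 2. Hepatocyte markers summed to 90124 to 118256 CPM in WT and 89557 to 103112 CPM in IR 4A with 11 of the 12 listed markers in the table and none of them at 0. Because these are bulk samples, fewer cells of a type and less RNA per cell cannot be told apart in anything below.

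After adjustment over all genes 1 gene passed the edgeR test. Erdr1, a gene of the pseudoautosomal region known as erythroid differentiation regulator 1 and present on both X and Y, so that the split of reads between its copies is uncertain, measured 25.2, 17.5, 27.1, 20.9 and 24.3 CPM in WT 1 to 5 and 7.72, 3.11, 3.46, 3.96 and 2.21 CPM in IR 4A 1 to 5. Every IR 4A library lay below every WT library, and the gene fell by 2.48 on the log2 scale (SE 0.27, adjusted p = 0.00939). Its change was -2.35 without WT 1 and WT 3 (adjusted p = 0.0843), and without IR 4A 2, 3 or 4 in turn its adjusted p was 0.0507, 0.0658 and 0.0634. With IR 4A 1 left out, which had the highest Erdr1 of its group, 80 genes passed the edgeR test higher and 63 lower, and DESeq2 on all 10 libraries called 193 and 242. No gene passed in the other direction, so 0% of tested genes were called higher and 0.00805% lower. The unadjusted p was under 0.05 for 1068 higher (8.6%) and 1178 lower (9.48%) genes, and without WT 1 and WT 3 there were 862 (6.78%) and 761 (5.98%) of 12716 tested. In what follows no gene other than Erdr1 passed the adjusted threshold, and higher or lower describes the libraries at hand.

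Over all tested genes the groups did not overlap for 209 genes that were higher (1.68%) and 227 that were lower (1.83%) in IR 4A. Among the well-expressed genes 125 were higher (1.83%) and 176 lower (2.57%) without overlap, 301 in all. These genes were chosen by the values described here, so the values are given as a description. Most differences were small: the median absolute log2 fold change was 0.35 for the higher and 0.31 for the lower genes, and 91 and 148 of them were under 0.5. Only 4 higher genes (Cib3, Fmo2, Pltp and Spred2) and 7 lower genes (Erdr1, Lars2, Mup16, Mup1, H1f2, Atf5 and Acnat2) reached a log2 fold change of 1 in size. The adjusted p of the 301 genes ran from 0.0622 to 0.357 for the higher and from 0.00939 to 0.368 for the lower. Of the 301, 42 (14.0%) were on any of the process lists examined, near the 860 of 6838 (12.6%) of all well-expressed genes.

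With WT 1 and WT 3 left out, 3 against 5 libraries fail to overlap more easily than 5 against 5, so non-overlap was not used as a check. A gene was said to hold where, without those libraries, its log2 fold change kept its sign and at least 2/3 of its size and its unadjusted p stayed under 0.05. By this rule 223 of the 301 genes held, 89 of the 125 higher (71.2%) and 134 of the 176 lower (76.1%). The 301 genes were chosen for a gap between the groups, and leaving libraries out cannot of itself close such a gap. The choice therefore favoured a kept sign and a low p. These shares describe how far the sizes depended on WT 1 and WT 3 and are not an independent check. The share among all well-expressed genes is not given here. Another 17 higher and 15 lower genes kept a p under 0.05 at a smaller size, and 19 and 27 had a p of 0.05 or more.

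**Figure D1:**
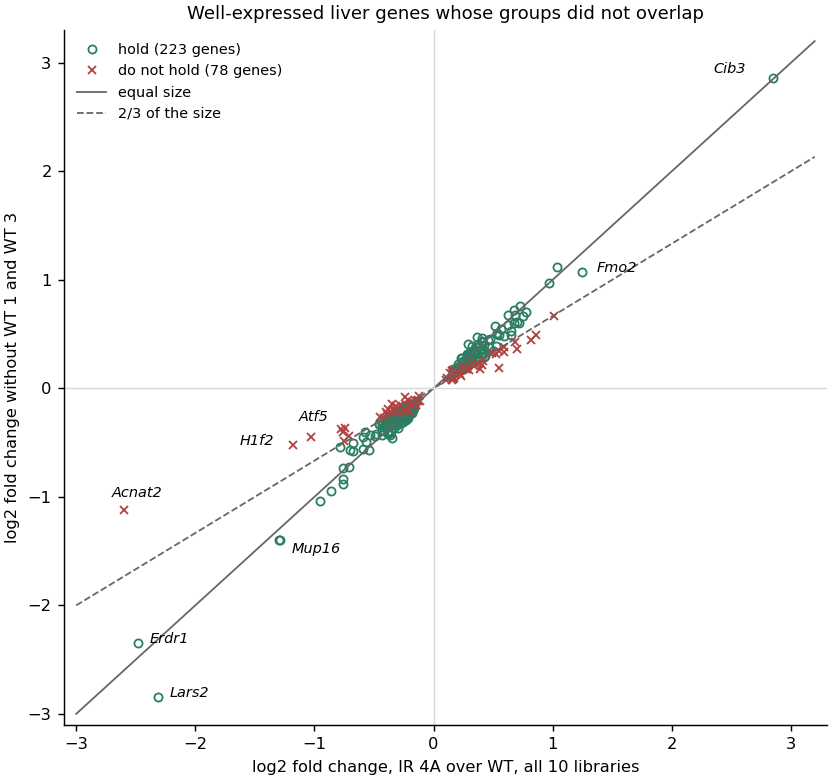
Log2 fold change of IR 4A over WT liver for the 301 well-expressed genes whose groups did not overlap, with all 10 libraries (x axis) and without WT 1 and WT 3 (y axis), with circles for the 223 genes that held and crosses for the other 78. Erdr1, Lars2, Mup16 and Cib3 lie near the line of equal size, while Atf5, H1f2 and Acnat2 lie between the dashed line of 2/3 of the size and 0.

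Among the genes that were higher and held, Cib3 differed most. Cib3, of the calcium- and integrin-binding protein family, measured 1.29, 3.81, 6.25, 6.85 and 0.947 CPM in WT 1 to 5 and 21.7, 28.0, 40.6, 17.2 and 29.8 CPM in IR 4A 1 to 5. The lowest IR 4A library was above 2 times the highest WT library, and the log2 fold change was 2.85 ± 0.44 (SE, adjusted p = 0.0622) and 2.86 without WT 1 and WT 3.

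Zfp36l1, an RNA-binding protein that destabilises AU-rich messages, was at 91.1, 84.4, 94.9, 102 and 77.8 CPM in WT and 115, 157, 170.1, 145 and 158 CPM in IR 4A. WT 1 and WT 3 were among the middle of the WT livers for this gene, and the log2 fold change was 0.73 ± 0.11 (adjusted p = 0.0622) with them and 0.76 without. Retreg1, a receptor that delivers endoplasmic reticulum (ER) to autophagy, was at 63.0, 79.6, 65.1, 70.2 and 68.4 CPM in WT and 83.2, 113, 110.2, 124 and 123 CPM in IR 4A. IR 4A 1 was the lowest of its group and close to WT 2, and the log2 fold change was 0.68 ± 0.11 (adjusted p = 0.0727), or 0.60 without WT 1 and WT 3. Pltp, the phospholipid transfer protein of plasma lipoproteins, was at 9.25, 13.9, 13.6, 6.11 and 9.86 CPM in WT and 21.2, 17.3, 19.6, 31.95 and 18.3 CPM in IR 4A, which gave a log2 fold change of 1.04 ± 0.22 (adjusted p = 0.108) that was 1.12 without WT 1 and WT 3. Both of the WT livers with the highest Pltp were still below the lowest IR 4A liver.

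The other higher genes that held covered several roles, with log2 fold changes given first for all libraries and then without WT 1 and WT 3. Enzymes and transporters among them were Fmo2, a flavin-containing monooxygenase (1.25 and 1.08), Fads1, the delta-5 desaturase of polyunsaturated fatty acids (0.40 and 0.32), and Slc20a1, a sodium-dependent phosphate transporter (0.46 and 0.38). Of signalling and regulatory proteins there were Map3k5, the stress kinase ASK1 (0.71 and 0.61), the deubiquitinase Otud7b (0.41 and 0.46) and Arnt, the partner of hypoxia-inducible factors and of the aryl hydrocarbon receptor (0.29 and 0.26). Junction and cytoskeletal genes were Ocln, the tight junction protein occludin (0.68 and 0.72), the class I myosin Myo1e (0.48 and 0.46) and the focal adhesion protein Tns3 (0.37 and 0.38). The groups of Otud7b were narrow, 23.8 to 28.4 CPM in WT and 31.98 to 35.8 CPM in IR 4A.

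Igkc, the immunoglobulin kappa constant chain of B and plasma cells, was also higher, at 16.4, 20.4, 20.9, 20.5 and 16.2 CPM in WT and 28.2, 32.8, 38.9, 30.5 and 21.5 CPM in IR 4A. The 14 lymphocyte markers, of which Igkc is one, summed to 22.2 to 32.8 CPM in WT and 33.7 to 55.8 CPM in IR 4A, none at 0 in all libraries, but Igkc alone made up most of these sums. Of the 14, 5 passed the filter, 3 of them positive and 2 negative. All 3 positive ones were higher at an unadjusted p under 0.05 (8.6% over all genes), and 2 were without WT 1 and WT 3 (6.78% over all genes). The mean log2 level of the 5 markers, relative to the 10 libraries, overlapped between WT (-0.57 to -0.01) and IR 4A (-0.17 to 0.35). Their part in other results was not tested. The log2 fold change of Igkc was 0.69 ± 0.14 (adjusted p = 0.106), and 0.68 without WT 1 and WT 3.

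**Figure D2:**
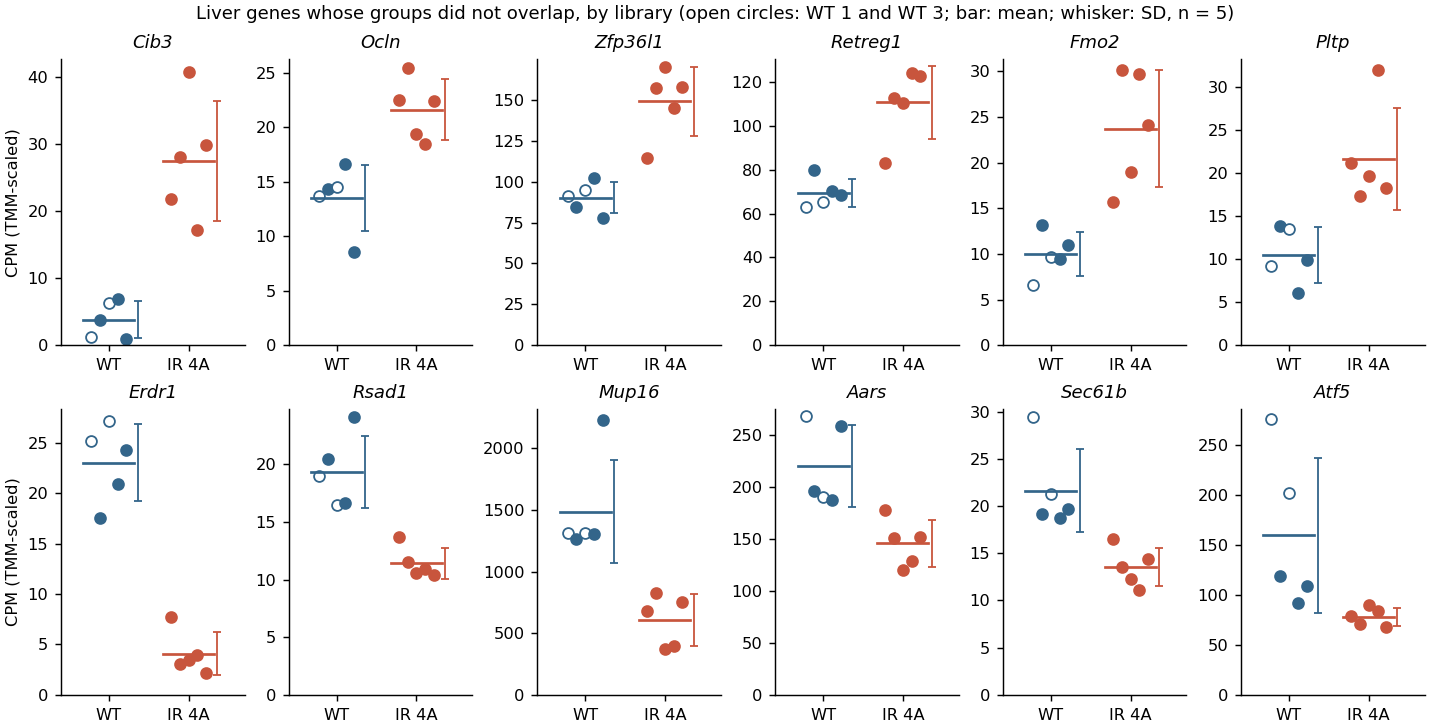
TMM-scaled CPM of 12 genes in each liver library, with a bar at the mean and a whisker for the SD (n = 5 per group), and open circles for WT 1 and WT 3. In the top row (Cib3, Ocln, Zfp36l1, Retreg1, Fmo2 and Pltp) every IR 4A library is above every WT library and in the bottom row (Erdr1, Rsad1, Mup16, Aars, Sec61b and Atf5) below, and for Atf5 the open circles, 276 and 202 CPM, are the 2 highest.

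Among the lower genes that held, Rsad1, of the radical SAM protein family, measured 19.0, 20.4, 16.5, 16.7 and 24.1 CPM in WT and 13.7, 11.6, 10.5, 10.9 and 10.4 CPM in IR 4A. WT 1 and WT 3 were not its highest libraries, and its log2 fold change was -0.76 ± 0.12 (adjusted p = 0.0650), and -0.84 without them. Others with log2 fold changes that held were the membrane protein Mospd3 (-0.41 and -0.40), the acyl-CoA thioesterase Them4 (-0.56 and -0.50), the splicing factor Puf60 (-0.31 and -0.31), the CpG-binding protein Cxxc1 (-0.33 and -0.36), the ubiquitin ligase Rnf126 (-0.46 and -0.33), Sumo3 (-0.32 and -0.24) and Cdipt, which makes phosphatidylinositol (-0.32 and -0.28). Pmm2, the phosphomannomutase that supplies protein glycosylation, was at 38.7 to 40.7 CPM in WT and 32.4 to 33.5 CPM in IR 4A. The groups were narrow and well apart, with a log2 fold change of -0.28 ± 0.05 (adjusted p = 0.101).

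Lars2, the mitochondrial leucyl-tRNA synthetase, measured 974, 999, 1475, 13060.4 and 1787 CPM in WT and 728, 498, 799.6, 698 and 951 CPM in IR 4A. WT 4 was far above all other livers, and the groups stayed apart only narrowly, between 951 and 974 CPM. The ribosomal RNA gene Rn18s was at 98417 CPM in WT 4 and at 5765 to 11657 CPM in the other WT and 3246 to 5861 CPM in the IR 4A livers, and its part in the Lars2 values was not tested. The log2 fold change of Lars2 was -2.32 ± 0.69 (adjusted p = 0.154) with WT 4 and -0.83 (adjusted p = 0.130) without it. Without WT 1 and WT 3, where WT 4 remains, it was -2.85.

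Genes of the aminoacyl-tRNA synthetases, which load transfer RNAs with their amino acids, were mostly lower in IR 4A livers. Of 25 synthetase genes tested, mitochondrial members included, 22 had a negative log2 fold change, 14 had an unadjusted p under 0.05 and a lower level, none was higher at that p, and the groups of 5 did not overlap (Aars, Mars1, Cars, Farsb and Lars2). Over all tested genes 9.48% were lower at that p, and 1.83% were lower without overlap. The median log2 fold change was -0.21 for the list and 0.00 for all genes. Without WT 1 and WT 3 the count was 8 (5.98% over all genes) and the median -0.15. The mean level of the list overlapped between the groups, since WT 2 (-0.016) lay below IR 4A 1 (-0.008). Aars, Mars1, Cars, Farsb and, with WT 4 still among the libraries, Lars2 each held. Aars, the alanyl-tRNA synthetase, was at 268, 196, 191, 188 and 259 CPM in WT and 178, 151, 120.1, 129 and 152 CPM in IR 4A, which gave a log2 fold change of -0.60 ± 0.14 (adjusted p = 0.115) and of -0.56 without WT 1 and WT 3. The lowest WT liver, WT 4, was above the highest IR 4A liver, IR 4A 1. Mars1, for methionine, and Cars, for cysteine, had log2 fold changes of -0.44 ± 0.11 and -0.57 ± 0.15, and of -0.38 and -0.40 without WT 1 and WT 3.

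Cytosolic synthetase genes are known targets of ATF4, the transcription factor of the integrated stress response, which binds with C/EBP partners at a CARE element (TGATGNAA). The element was searched on both strands in the 250 bases before each RefSeq gene start (GRCm38.p6), for the 18 synthetase genes with a sequence at hand. It was present in 3 of the 18 (16.7%), Aars, Gars and Tars, against 248 of 9902 tested genes with such a sequence (2.5%). The 3 windows are shown, 5′ to 3′ on the strand of the gene, because they let the element's place be compared with the values, and the capitals mark the element, which lies on the opposite strand in all 3.
Aars (chr8:111033592-111033841, forward strand): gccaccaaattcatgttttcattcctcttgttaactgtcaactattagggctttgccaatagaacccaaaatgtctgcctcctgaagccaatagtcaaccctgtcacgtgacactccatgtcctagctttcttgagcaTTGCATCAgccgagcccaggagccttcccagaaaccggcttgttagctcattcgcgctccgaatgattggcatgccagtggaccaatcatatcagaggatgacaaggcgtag
Gars (chr6:55037751-55038000, forward strand): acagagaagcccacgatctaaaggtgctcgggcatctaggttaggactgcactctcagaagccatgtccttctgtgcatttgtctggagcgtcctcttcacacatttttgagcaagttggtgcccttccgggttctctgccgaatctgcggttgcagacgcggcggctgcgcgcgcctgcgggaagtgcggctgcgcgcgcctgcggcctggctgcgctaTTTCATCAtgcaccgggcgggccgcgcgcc
Tars (chr15:11399659-11399908, reverse strand): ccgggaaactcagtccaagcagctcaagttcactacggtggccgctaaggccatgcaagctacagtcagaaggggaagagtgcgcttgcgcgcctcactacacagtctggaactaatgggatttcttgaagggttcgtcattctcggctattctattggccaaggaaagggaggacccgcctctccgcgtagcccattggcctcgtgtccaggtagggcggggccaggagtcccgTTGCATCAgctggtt
A match is a description of these letters and not a measured site. Gars, for glycine, was at 33.6, 29.6, 35.4, 29.6 and 28.2 CPM in WT and 27.9, 26.5, 25.02, 25.9 and 28.6 CPM in IR 4A, and Tars, for threonine, at 101, 65.7, 93.1, 92.4 and 89.3 CPM and 79.4, 70.6, 71.7, 68.5 and 63.4 CPM. Their groups overlapped, through IR 4A 5 for Gars and WT 2 for Tars, and their log2 fold changes of -0.22 and -0.32 were -0.12 and -0.22 without WT 1 and WT 3. Gars and Tars were chosen for the element, after their values were seen. Among the 138 lower genes without overlap that had a sequence, 4 held the element (2.9%), and among the 96 higher ones 3 did (3.12%).

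The list of the ATF4 and ATF5 stress response, with 29 genes tested, shares Aars, Mars1 and other synthetases with the list above. Of its genes 10 were lower and 1 higher at an unadjusted p under 0.05 (9.48% and 8.6% over all genes). The median log2 fold change was -0.20. Without WT 1 and WT 3 these counts were 7 and 2 (5.98% and 6.78% over all genes) and the median was -0.16. Atf5, a transcription factor of that response, did not hold. It was at 276, 119, 202, 92.3 and 109 CPM in WT and 78.7, 71.4, 89.9, 83.7 and 67.5 CPM in IR 4A, so that WT 1 and WT 3 were the highest libraries and WT 4 was just above the highest IR 4A liver. Its log2 fold change of -1.03 ± 0.26 (adjusted p = 0.127) was -0.45 without them.

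Genes of the secretory pathway were lower as well, with a part that depended on WT 1 and WT 3. Of 38 genes of ER folding and degradation, 21 were lower at an unadjusted p under 0.05 (9.48% over all genes) and none higher, with a median log2 fold change of -0.34, and without WT 1 and WT 3 these were 8 lower (5.98% over all genes) and a median of -0.17. For the 41 genes of ER to Golgi transport the counts were 20 and then 5 lower, none higher, and the medians -0.20 and -0.10. The mean level of both lists overlapped between the groups, since WT 2 lay below IR 4A 1 and IR 4A 2. Sec61b, a subunit of the translocation channel, was at 29.4, 19.1, 21.3, 18.8 and 19.7 CPM in WT and 16.5, 13.6, 12.3, 11.1 and 14.3 CPM in IR 4A, which gave a log2 fold change of -0.67 ± 0.14 (adjusted p = 0.106) and of -0.50 without WT 1 and WT 3. WT 1 was the highest, but the other 4 WT livers were also above every IR 4A liver. Ssr4, of the complex beside the channel (-0.41 and -0.35), Sec61g, another channel subunit (-0.85 and -0.69), Slc35b1, which exchanges ATP into the ER (-0.78 and -0.54), and Lman2, a lectin that carries glycoproteins forward (-0.35 and -0.31), held too, of which Ssr4 and Slc35b1 are outside these lists. Sec61g, at a mean of 3.54 CPM, was below the limit for well-expressed genes and is not among the 301.

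Proteasome and ribosomal protein genes differed by little, and mostly in 1 direction. Of 38 proteasome genes, all coding for subunits or activators except Nfe2l1, the transcription factor that drives them, 36 had a negative log2 fold change, 15 were lower at an unadjusted p under 0.05 (9.48% over all genes) and none higher, with a median of -0.16, and without WT 1 and WT 3 it was 7 lower (5.98% over all genes) with a median of -0.14. Psmc4, an ATPase of the regulatory particle, was at 54.1 to 66.1 CPM in WT and 38.4 to 54.0 CPM in IR 4A, which gave a log2 fold change of -0.35 ± 0.09 and of -0.27 without WT 1 and WT 3, and Psmb3, of the catalytic core, at -0.29 and -0.27, also did not overlap. Of 49 cytosolic ribosomal protein genes, 39 were negative, 5 were lower at that p, near the 9.48% of all genes, and the median was -0.08. Rpl38 of the list (-0.24 and -0.23) and Rpl41 outside it (-0.31 and -0.27) did not overlap. The mean levels of the proteasome list and of the ribosomal list each overlapped between the groups, since IR 4A 1 lay above WT 5.

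Extracellular matrix genes were mostly higher in IR 4A, and more of them without WT 1 and WT 3. The mean level of the list overlapped between the groups, since IR 4A 1 (-0.10) lay below WT 1 (0.13), WT 3 (-0.09) and WT 5 (-0.05). Of 62 genes tested, 54 had a positive log2 fold change, 20 were higher and 2 lower at an unadjusted p under 0.05 (8.6% and 9.48% over all genes), and the groups of 10 did not overlap, all higher (1.68% over all genes), with a median of 0.41. Without WT 1 and WT 3, 27 were higher (6.78% over all genes), none was lower, and the median was 0.56. Tnxb, tenascin-X, which organises collagen fibrils, was at 5.72, 5.69, 8.05, 7.34 and 6.58 CPM in WT and 11.8, 8.79, 13.1, 14.8 and 16.1 CPM in IR 4A, which gave a log2 fold change of 0.95 ± 0.16 (adjusted p = 0.0751), or 0.98 without WT 1 and WT 3. Fbln5, fibulin-5 of elastic fibres, was at 1.85, 0.994, 2.10, 1.23 and 1.69 CPM in WT and 2.68, 4.92, 4.03, 3.72 and 3.43 CPM in IR 4A. Neither gene overlapped between groups, and the log2 fold change of Fbln5 was 1.24 ± 0.23 (adjusted p = 0.101), or 1.51 without WT 1 and WT 3. Neither gene reached the mean CPM asked of well-expressed genes, and many genes of the list are known products of stromal cells. Of the 12 stellate cell markers, 11 were positive and 5 were higher at that p, with sums of 180 to 246 CPM in WT and 207 to 358 CPM in IR 4A. The stellate list shares members with the matrix list, Reln and Ecm1 among them, so their counts are not separate. The 8 mesothelial markers, cells of the liver's capsule, summed to 1.60 to 6.10 CPM and 4.64 to 7.98 CPM. The part of these cells in the matrix values was not tested.

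**Figure D3:**
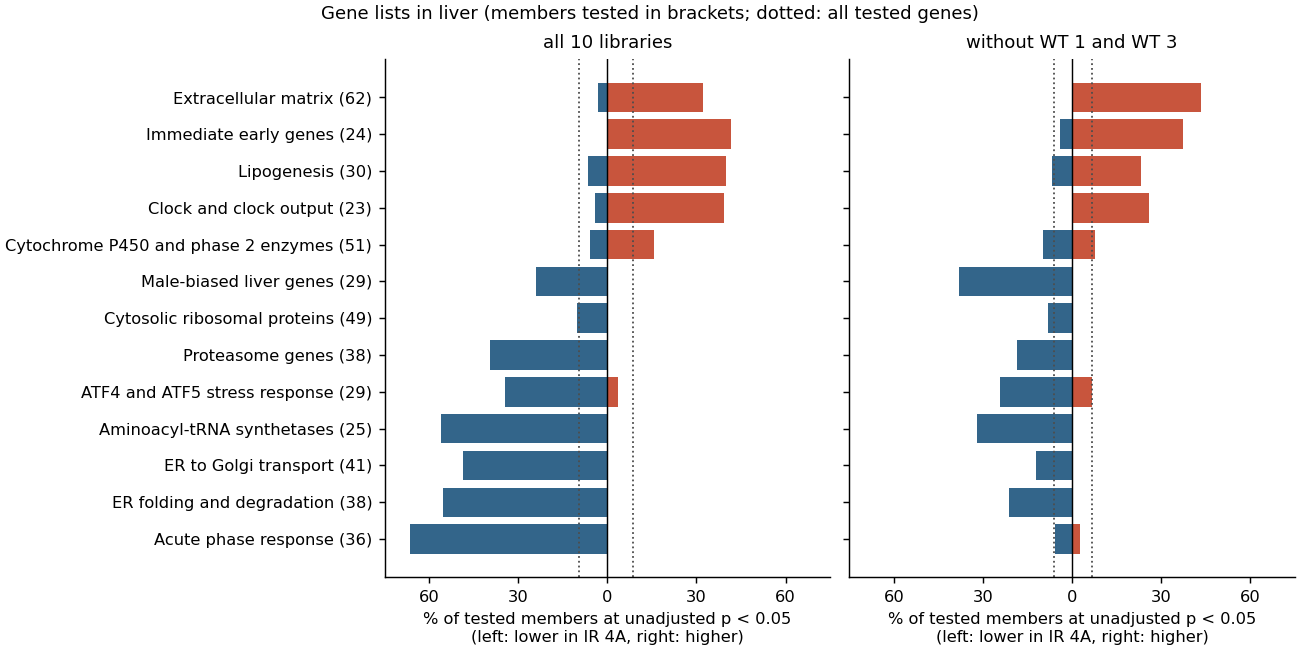
Share of tested members of each gene list at an unadjusted p under 0.05, lower in IR 4A to the left and higher to the right, with all 10 libraries and without WT 1 and WT 3, and dotted lines for all tested genes. The acute phase list goes from 24 of 36 lower to 2 of 36, which follows from leaving out the 2 libraries where this list was high. The extracellular matrix list goes from 20 to 27 of 62 higher.

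Fatty acid synthesis genes were higher in part. Of 30 lipogenic genes, 23 were positive, 12 were higher and 2 lower at an unadjusted p under 0.05 (8.6% and 9.48% over all genes), with a median log2 fold change of 0.26, and without WT 1 and WT 3 it was 7 higher (6.78% over all genes), 2 lower and 0.15. Fads1 and Fasn did not overlap and held, Fasn, fatty acid synthase, with 129.7, 203, 221, 219.6 and 131 CPM in WT and 254, 264, 286, 269 and 236 CPM in IR 4A. WT 5, which was not high in acute phase genes, was as low as WT 1, and the log2 fold change was 0.53 ± 0.16 (adjusted p = 0.153) and 0.50 without WT 1 and WT 3. Agpat2, which makes phosphatidic acid for triglycerides, went the other way (-0.38 and -0.40) and held. Of 34 genes of insulin receptor signalling, 17 were positive, 2 were higher and 3 lower at that p, and the median was 0.00. The insulin receptor's own gene, Insr, was at 145 to 165 CPM in WT and 152 to 177 CPM in IR 4A, overlapping groups with a log2 fold change of 0.09 ± 0.07 (adjusted p = 0.506), and the altered motif does not show in a count per gene. Pik3ca, the catalytic subunit of PI3-kinase, was at 28.9 to 31.5 CPM in WT and 31.5 to 37.5 CPM in IR 4A, groups that nearly met, and held at a small size (0.21 and 0.21).

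Male-biased liver genes were lower, and more of them without WT 1 and WT 3. Of 29 genes, 22 were negative and 7 were lower at an unadjusted p under 0.05 (9.48% over all genes) with a median of -0.21, and then 11 were lower (5.98% over all genes) with a median of -0.38. The mean level of the list overlapped between the groups, since IR 4A 1 and IR 4A 5 lay above WT 1. The groups of 3, Mup1, Mup7 and Mup11, did not overlap, all lower (1.83% over all genes). They are major urinary proteins, pheromone carriers that male livers secrete. Mup16, Mup14 and Mup19 of the same family, outside the list, did not overlap either. Mup16 was at 1315, 1261, 1314, 1308 and 2229 CPM in WT and 683, 829.5, 373, 398 and 752 CPM in IR 4A. WT 5 was far above the other WT livers, which were alike, and IR 4A 3 and IR 4A 4 were the lowest of all. Its log2 fold change was -1.29 ± 0.25 (adjusted p = 0.101), and -1.40 without WT 1 and WT 3. Mup11 (-0.86 and -0.95), Mup1 (-1.29 and -1.39), Mup7 (-0.76 and -0.88), Mup14 (-0.76 and -0.73) and Mup19 (-0.95 and -1.03) held as well. Members of this family are near-identical in sequence and reads can be split between them, so the values of single members are uncertain and they are not independent of each other. Elovl3, a male-biased fatty acid elongase, was at 45.1, 58.6, 71.1, 42.6 and 66.9 CPM in WT and 32.5, 20.0, 24.9, 43.3 and 21.7 CPM in IR 4A, where IR 4A 4 overlapped WT 4.

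Female-biased liver genes went both ways. Of 14 tested, 4 were higher and 2 lower at an unadjusted p under 0.05 (8.6% and 9.48% over all genes). The median log2 fold change was 0.55. Without WT 1 and WT 3, 5 were higher and 2 lower (6.78% and 5.98% over all genes). Ntrk2, the receptor TrkB for brain-derived neurotrophic factor, was at 0.280, 0.110, 0.650, 0 and 0.150 CPM in WT and 2.10, 2.36, 4.51, 5.04 and 1.84 CPM in IR 4A. It was low in every liver, and the groups did not overlap, with a log2 fold change of 3.66 ± 0.56 (adjusted p = 0.0622) that was 5.03 without WT 1 and WT 3, a size that is uncertain with WT levels this near 0. Cyp2c40, a cytochrome P450 of arachidonic acid metabolism, was at 18.8, 12.04, 9.45, 4.13 and 8.22 CPM in WT and 1.83, 2.16, 2.56, 1.74 and 1.69 CPM in IR 4A. Every WT liver was above every IR 4A liver, and the log2 fold change was -2.39 ± 0.33 (adjusted p = 0.0622), or -2.02 without WT 1 and WT 3. Genes of the Cyp2c family are alike in sequence, so that the split of reads between them is uncertain.

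Of the other lists plotted, the immediate early genes are the first that growth and stress signals switch on. Of 24 such genes, 10 were higher and none lower at an unadjusted p under 0.05 (8.6% and 9.48% over all genes). Without WT 1 and WT 3, 9 were higher and 1 lower (6.78% and 5.98% over all genes). The mean level of the list overlapped between the groups, since IR 4A 4 (-0.11) lay below WT 5 (-0.06). Ier2 (0.43 and 0.38) and Zfp36l1 were the 2 whose groups did not overlap, both higher (1.68% over all genes). Btg2, an antiproliferative gene of this list, was at 7.80, 6.90, 8.20, 9.81 and 13.65 CPM in WT and 16.4, 18.1, 20.05, 16.7 and 12.2 CPM in IR 4A. IR 4A 5 lay below WT 5, and the log2 fold change was 0.85 ± 0.18, or 0.72 without WT 1 and WT 3. Of 23 clock genes, 9 were higher and 1 lower, and then 6 and 0, with none free of overlap. Of 51 cytochrome P450 and phase 2 enzymes, 8 were higher and 3 lower, and then 4 and 5, and of this list, which does not hold Cyp2c40, only Cyp1b1, at most 1.00 CPM in any liver, did not overlap (0.97 and 1.21). Of 36 acute phase genes, 24 were lower with a median of -0.89, and without WT 1 and WT 3 it was 2 lower, 1 higher and a median of -0.21. WT 1 and WT 3 were left out for their high acute phase level, so this fall follows from the choice and is not a result. Cebpb, a transcription factor of that response, was at 44.6, 65.1, 46.9, 49.0 and 79.1 CPM in WT and 50.9, 44.996, 27.4, 28.3 and 33.3 CPM in IR 4A. WT 1 and WT 3 were the lowest WT livers for Cebpb, unlike for the list, and its log2 fold change was -0.62 ± 0.20 and then -0.80.

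**Figure D4:**
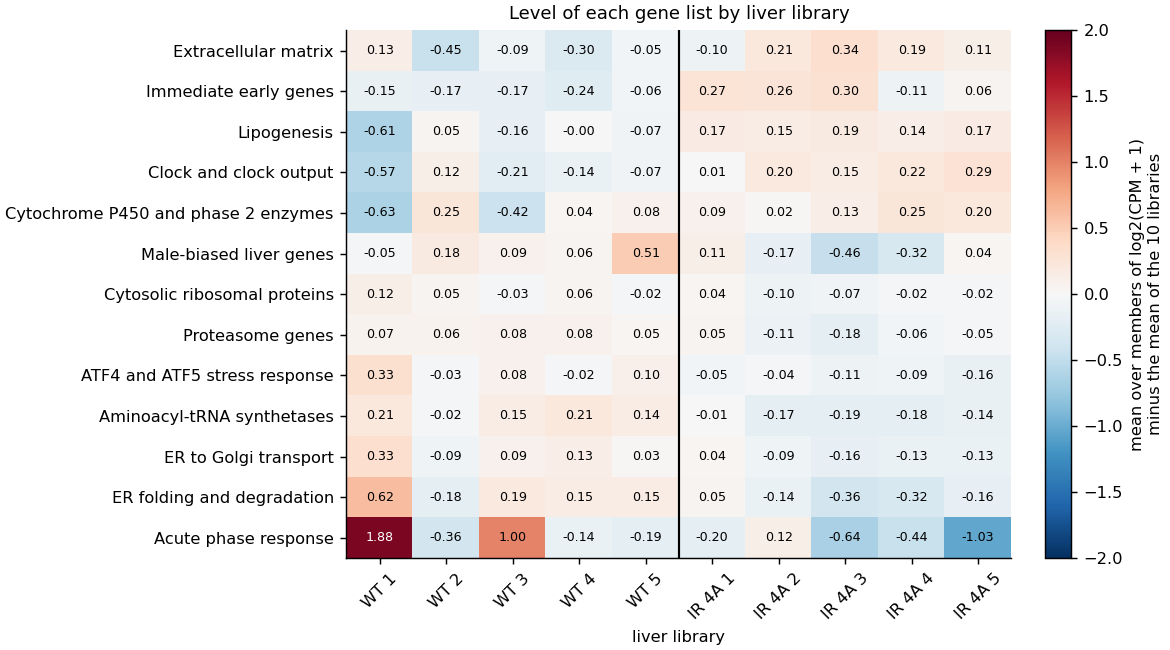
Mean over the members of each list of log2(CPM + 1) minus the mean of the 10 libraries, for WT 1 to 5 and IR 4A 1 to 5, with colour and number giving the same value. The acute phase list is at 1.88 in WT 1 and 1.00 in WT 3, and the male-biased list is highest in WT 5 (0.51) and lowest in IR 4A 3 (-0.46).

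In 52 of the 78 genes that did not hold, WT 1 and WT 3 both lay beyond the other 3 WT livers on the side away from IR 4A. The rule for holding itself favours this pattern. Gys2, the glycogen synthase of liver, was at 107, 284, 162, 316 and 307 CPM in WT and 326, 321, 365, 368 and 345 CPM in IR 4A, and its log2 fold change of 0.55 ± 0.25 (adjusted p = 0.269) was 0.19 without them. WT 4 was close to the lowest IR 4A liver, and WT 2, WT 4 and WT 5 were far above WT 1 and WT 3. Abcc3, a bile acid and conjugate exporter, was at 64.6, 255, 121, 176 and 203 CPM in WT and 259, 284, 296, 292 and 311 CPM in IR 4A (0.82 ± 0.27, and 0.45 without them). H1f2, a linker histone, was at 76.4, 22.5, 44.8, 23.6 and 28.0 CPM in WT and 17.5, 19.3, 18.1, 15.9 and 15.4 CPM in IR 4A (-1.18 ± 0.30, and -0.52 without them). In all 3 genes WT 1 was the most extreme library and WT 3 the next. Acnat2, an acyltransferase, named after its values were seen, was lower by the largest log2 fold change of the lower genes, -2.60 ± 0.63 (adjusted p = 0.115), with 83.8 CPM in WT 1 and 27.0 CPM in WT 3 against 9.17, 9.50 and 11.8 CPM in the other WT livers and 2.97 to 7.63 CPM in IR 4A, and was at -1.12 without them. Spred2, an inhibitor of RAS signalling (1.01 and 0.66), Bach1, a repressor of haem oxygenase (0.49 and 0.32), Bnip3, a mitophagy receptor (0.55 and 0.34), Eif4a2 (0.53 and 0.31), Mug2 (0.59 and 0.33) and Mrap, a melanocortin receptor accessory protein (-0.71 and -0.44), kept a p under 0.05 at less than 2/3 of the size.

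Without WT 1 and WT 3, another 118 higher and 169 lower well-expressed genes no longer overlapped, which fewer libraries make easier. Gstp1, a glutathione transferase higher in male than in female mouse liver, was at 1105, 1529, 1085, 1455 and 1727 CPM in WT and 1008, 901, 1073, 1085 and 1092 CPM in IR 4A. WT 1 and WT 3 were at the level of the IR 4A livers and the other 3 WT livers above, and the log2 fold change of -0.42 ± 0.14 became -0.61. Ide, the insulin-degrading enzyme, was at 129.9, 79.5, 82.7, 76.2 and 119 CPM in WT and 147, 144, 129, 147 and 148 CPM in IR 4A, where IR 4A 3 lay just below WT 1, with log2 fold changes of 0.55 ± 0.15 and 0.64. Fmo4, a further flavin-containing monooxygenase, went from 0.45 ± 0.23 to 0.85. Other genes of this kind were Etv6, an ETS repressor (-0.47 and -0.60), Dsp, the desmosomal protein desmoplakin (0.32 and 0.43), and Zfp292, a zinc finger protein (0.30 and 0.64).

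The genes without overlap differed by direction in transcript length and GC content. The median transcript length was 1783 bases for the 125 higher and 962 bases for the 176 lower genes, against 1330.2 bases for the overlapping well-expressed genes, and the median GC content was 47.5% and 53.2% against 49.9%. When well-expressed genes were divided by length into 4 classes of equal size, 1.35% of the shortest class were higher and 3.51% lower without overlap, and 2.57% and 1.17% of the longest. The mean log2 level of the longest class minus that of the shortest, relative to the 10 libraries, was -0.058 to -0.011 in WT and -0.009 to 0.054 in IR 4A livers, so this measure separated the groups as well, though narrowly. The like measure for GC content, the highest class minus the lowest, overlapped, at -0.104 to 0.116 in WT and -0.102 to 0.022 in IR 4A livers. With each library's trend on length and GC content removed, all 301 genes kept their sign, 121 of the 125 and 176 of the 176 kept 2/3 of their size, and 84 and 140 stayed without overlap. The median log2 fold change went from 0.35 to 0.32 for the higher and stayed at -0.31 for the lower genes.

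**Figure D5:**
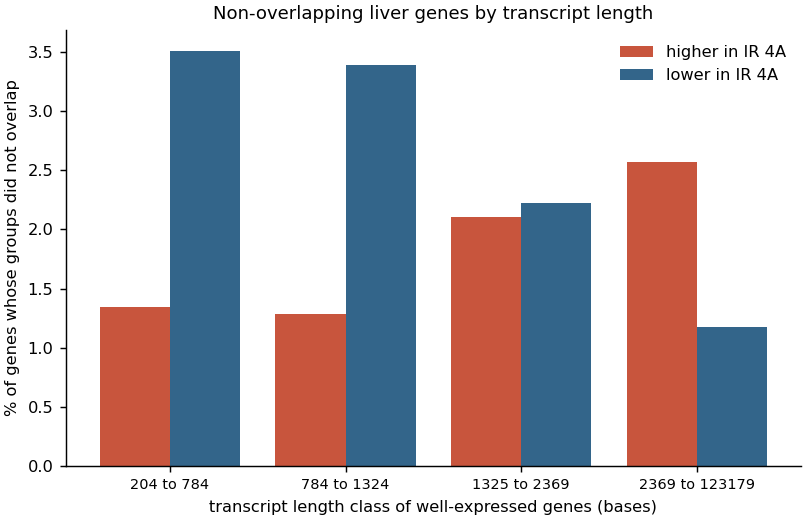
Percent of well-expressed liver genes whose groups did not overlap, higher (red) or lower (blue) in IR 4A, in each of 4 classes of transcript length in bases. The higher share is 1.35% in the shortest and 2.57% in the longest class and the lower share 3.51% and 1.17%.

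The authors' deposited table of their DESeq2 comparison held 154 genes that were higher (1.16%) and 176 that were lower (1.33%) at an adjusted p under 0.05, of 13225 with such a p. Of these, 42 and 51 were among the well-expressed genes without overlap, 27.3% and 29.0% of the authors' calls and 33.6% and 29.0% of the genes without overlap. All 301 genes without overlap had the same sign in the authors' deposited table, and for 10 higher and 6 lower genes the authors' log2 fold change was under 1/2 of the one from the counts. Ahnak, a large scaffold protein, was at 7.57, 7.18, 7.75, 9.26 and 10.3 CPM in WT and 13.9, 12.7, 13.5, 16.3 and 11.9 CPM in IR 4A, which gave a log2 fold change of 0.70 ± 0.12, where the authors' deposited table gave 0.06. For Pmm2 and Pik3ca, named above, the authors' deposited table gave -0.08 and 0.10, and for Col16a1, a fibril-associated collagen below the limit for well-expressed genes, -0.07 where the counts gave 1.00 ± 0.22. Why the 2 sets of values differ for these genes was not tested.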

How the data were processed

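Poly-A RNA of 10 liver libraries, 5 WT and 5 IR 4A, was sequenced as stranded paired reads, per the labels' protocols. The authors deposited counts per gene, whole numbers rounded from Salmon estimates. The build was GRCm39 and the tools were DESeq2 1.32.0 and Salmon 1.8.0, per the submitters' processing notes, with settings not given in the sources used here. The authors' deposited DESeq2 table gives, per the file headers, log2 fold changes and their SE, a score (the Wald statistic), each p-value raw and adjusted, and the mean signal, which is the count scaled by size factors. Only its log2 fold changes and adjusted p were used, and the deposited normalized tables were not.

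After 83 repeated identifiers were dropped, genes were kept by filterByExpr (minimum count 10, minimum total 15), scaled by TMM and tested with edgeR 4.0.16 (quasi-likelihood F test, two-sided, Benjamini-Hochberg, threshold 0.05, R 4.3.3) on the 10 liver libraries alone. The SE is the log2 fold change divided by the root of F. The common biological coefficient of variation was 0.187, a summary over all genes. Each F test used a quasi-likelihood dispersion estimated for its own gene. No pair of libraries within a group agreed within sampling noise (the lowest chi-square over its degrees of freedom was 11.8 among 20 pairs).

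Lists of genes are described by counts and medians. The members, the lists and the choice of WT 1 and WT 3 were made with earlier results of these data known. Genes named are the gene past the threshold, the 25 higher and 25 lower without overlap with the smallest p, the 10 and 10 at 100 CPM or more with the largest change, up to 3 members per list with the smallest p, 13 genes of insulin action or the checkpoint, and the 15 and 15 without overlap and with the smallest p once WT 1 and WT 3 are left out. Some of these are not reported here. Farsb, Gars, Tars and Acnat2 fall outside this rule and were named after their values were seen, as were the genes named only for overlap.

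Transcript length and GC content are medians over a gene's transcripts in a GRCm38 annotation, found for 99.9% of tested genes, and promoter sequences are from RefSeq, of build GRCm38.p6, not the authors' build. Alternatives were RLE and upper-quartile scaling, 2 other filters, DESeq2 1.42.0, limma 3.58.1 (voom with sample weights), the replicate number as a block, other limits for well-expressed and for holding, and each library left out in turn. Removal of the length and GC trend (splines of 4 degrees of freedom) was added after the data were seen.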

Additional observations from a re-analysis of the deposited data

Results flagged for a closer look

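Among 156 groups of 5 libraries, those of 78 genes named above, 10 had 1 library set apart from the other 4, a distance that chance alone gives in about 1 of 20 groups, or 7.8 of these, so their number is near what chance gives. WT 1 was the library in 4 of them: Fads1 was at 257 CPM there, below the other WT livers, while Sec61b (29.4 CPM), Slc35b1 (48.6 CPM) and Ssr4 (57.1 CPM), 3 genes of the endoplasmic reticulum, were above them. WT 5 was high in 2 major urinary protein genes, Mup16 (2229 CPM) and Mup11 (20504 CPM). WT 4 was high in Lars2, at 13060.4 CPM, and is also the library with the most Rn18s. WT 2 was low in Tars (65.7 CPM), IR 4A 3 was low in Ide (129 CPM) and IR 4A 4 in Sec61g (1.46 CPM).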

How the results depend on the processing

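Counts at the adjusted threshold depended on the test and on single libraries: against 0 higher and 1 lower gene with edgeR, limma voom gave 2 and 2, DESeq2 193 and 242, and the fit without WT 1 and WT 3 gave 0 lower. With 1 library left out the counts ran from 0 to 80 higher and from 0 to 63 lower, both highest without IR 4A 1. Genes at an unadjusted p under 0.05 ran from 692 (without IR 4A 3) to 1348 (without IR 4A 1) higher and from 860 (without WT 1) to 1441 (without IR 4A 1) lower, and without WT 1 and WT 3 there were 761 lower. Well-expressed genes without overlap ran from 130 to 328 higher and from 202 to 478 lower with 1 library left out, and were 242 and 344 without WT 1 and WT 3, which fewer libraries allow by construction. At a mean of at least 30 CPM there were 76 and 88. Against 125 higher and 176 lower, RLE scaling gave 111 and 191 and upper-quartile scaling 122 and 187. No filter on low counts gave 101 and 206, and a filter of at least 1 CPM in 5 libraries 132 and 169. With the length and GC trend removed there were 93 and 194. With both WT 1 and WT 3 left out, genes that held were 77 to 106 higher and 134 to 149 lower under the settings tried. With WT 1 alone left out they were 112 and 161, and with WT 3 alone left out 113 and 164. Replicate numbers did not pair the libraries (correlations of same-numbered deviations -0.105 to 0.0940, with 2 of 5 WT libraries closest to their own number). With the replicate block 2 genes were higher and 1 lower at the threshold. No named gene changed sign under any alternative. Depth limits the fold of genes such as Ntrk2, which had 0 CPM in WT 4.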
